A study of Mus musculus with 9 samples.

Results

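The mitochondrial respiratory chain was followed through the genes of its subunits in colon scrapings of mice fed dietary heme. Members were all genes whose symbol began with Ndufa, Ndufb, Ndufc, Ndufs, Ndufv, Uqcr, Sdh, Cox4, Cox5, Cox6, Cox7 or Cox8 and that had a probeset of their own on the array. The rule found 76 genes of the 19938 measured. By their symbols 36 belonged to complex I, 4 to complex II, 8 to complex III and 17 to complex IV. The other 11 were assembly factors (Ndufaf and Sdhaf genes), which help build complexes I and II and are no part of them. Cox7c, Ndufb4 and Ndufb4b shared their probesets with another gene and were left out. Ndufb1, an accessory subunit of complex I, was not analysed here. Of the 76 genes, 75 passed the filter on dim signals (a mean of at least 4.716 log2) and were tested. The exception was Cox7b2, a testis form of a complex IV subunit, at 3.25 log2 in the control and 3.16 in the heme pools.

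The respiratory chain carries electrons from nutrients to oxygen and pumps protons across the inner mitochondrial membrane. Complex I oxidises NADH, complex II oxidises succinate and is also an enzyme of the citric acid cycle, complex III passes the electrons on to cytochrome c, and complex IV hands them to oxygen. Most subunits are encoded in the nucleus and a few in mitochondrial DNA. Surface cells of the colon are rich in mitochondria and oxidise fatty acids, above all butyrate, for their energy.

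The mice were male C57BL/6J, an inbred strain, aged 9 to 11 weeks. All ate a control diet with 40% of energy as fat for a run-in of 1 week. Heme mice then had 0.2 µmol heme per g added to that diet, heme being the iron pigment of red meat, and control mice had none. Epithelial cells were scraped from the opened and washed colon, and RNA of the mice of a diet and day was pooled for 1 array. There were 5 control pools (days 0, 2, 4, 7 and 14) and 4 heme pools (days 2, 4, 7 and 14). A pool was made from 4 mice, or from 3 for control day 2. No diet and day had more than 1 pool, so p-values rest on pools taken at different days and not on animals. In such pools fewer cells of a type and less RNA per cell cannot be told apart.

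All 6 colonocyte markers were strong in every pool, with a mean level of 12.03 to 12.24 log2. Aqp8, a water channel among them, rose between the diets (0.66, limma adjusted p = 0.0113), and on day 14 Krt20 also rose and Car4 fell. The 3 enteroendocrine markers had a median of -0.61 on day 7 and -1.06 on day 14. The 5 goblet cell markers had -0.11 and -0.14, with 2 and 1 of them above 0. The medians of all genes tested were -0.005 and -0.001. The scrapings also held other tissue in varying amounts. The mean level of 8 smooth muscle markers ran from 6.77 log2 in the heme pool of day 2 to 9.13 in the control pool of day 7. The 3 pancreatic acinar markers tested stood at 9.49 and 10.09 log2 in the control and heme pools of day 2 and between 5.29 and 5.66 in the other 7. The part of these markers in the results was not tested, and counts without the day 2 pools are given below. The heme pool of day 14 stood apart most, with 4051 of 14953 genes called against the control pools.

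Subunits of all 4 complexes had slightly higher mean levels in the heme pools, and no single subunit passed the test. The median log2 difference between the 4 heme and the 5 control pools was 0.10 for complex I, 0.14 for complex II, 0.13 for complex III and 0.10 for complex IV. It was 0.00 for the assembly factors and -0.002 for all genes tested. Of the 64 subunits tested, 61 had a difference above 0, against 49% of all genes tested. No member was called at an adjusted p under 0.05 in limma, where 0.595% of all genes were called higher and 0.0736% lower (0.669% in either direction). At an unadjusted p under 0.05, 38 members were higher and 0 lower, against 8.39% and 8.65% of all genes. The lowest adjusted p of a member was 0.0726. All 38 of these were subunits and none an assembly factor.

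**Figure D1:**
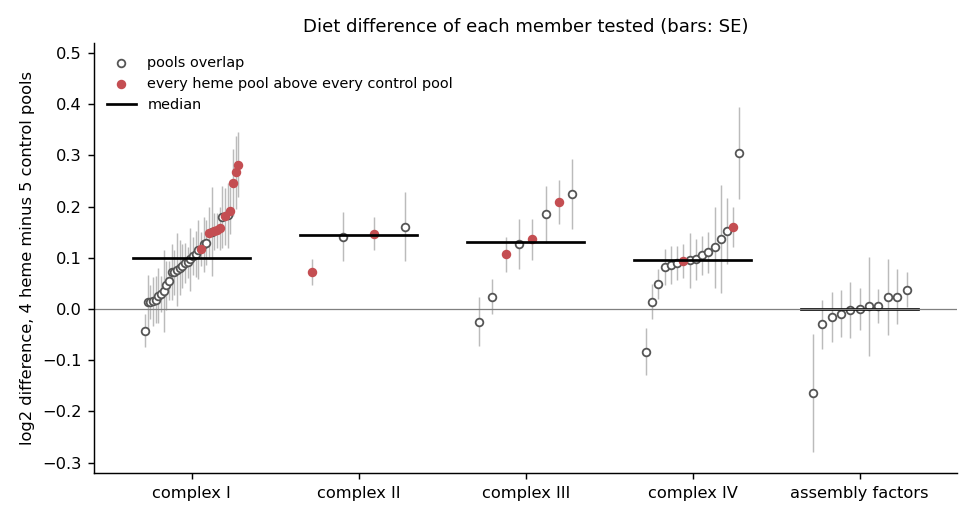
Log2 difference of each of the 75 members tested between the 4 heme and the 5 control pools (vertical axis), grouped by complex, with bars for the standard error and a black line for the group median. Nearly all subunits lie above 0, in the range -0.08 to 0.31, and the 11 assembly factors lie around 0.

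The levels themselves separated the diets for a part of the subunits. In 17 members every heme pool lay above every control pool, against 3.26% of all genes tested, and in 0 members every heme pool lay below, against 2.33%. Of the 17, 10 were in complex I, 2 in complex II, 3 in complex III and 2 in complex IV. On each of the 4 days the heme pool lay above the control pool of that day in 38 members, against 10.9% of all genes, and below it in 2, against 12%. Most subunits had a strong signal, and all 17 had a mean level of at least 9 log2. Among the 2374 genes with a mean level of at least 9 log2, 45% had a difference above 0 and 8.64% lay above every control pool in all heme pools. Among the 47 subunits of that level 44 and 17 did. Without the heme pool of day 2, 38 members lay above every control pool, against 5.72% of all genes, and 0 below, against 6.47%. With the arrays centred on their medians 28 did, against 5.03%.

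In complex I, the entry point for electrons from NADH, 35 of 36 subunits had a difference above 0 and 18 had an unadjusted p under 0.05. Ndufa4 (probeset 10543134) had the highest difference. It carries a complex I name and is now regarded as a part of complex IV. Its level was 10.83, 10.83, 10.88, 10.92 and 10.97 log2 in the control pools, in day order from 0 to 14, and 10.98, 11.12, 11.24 and 11.33 in the heme pools, in day order from 2 to 14. Every heme pool lay above every control pool, and both diets were higher on later days. The log2 difference was 0.28 (SE 0.06, 1.22-fold, limma adjusted p = 0.101). It was called with the arrays centred on their medians (adjusted p = 0.037) and on leaving out heme day 2 (adjusted p = 0.0143). On leaving out any other single pool it was not called (limma adjusted p = 0.103 to 0.271).

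The core subunits of complex I encoded in the nucleus, most of which hold flavin or iron-sulfur clusters, were represented by 6 genes. ND3, a core subunit encoded in mitochondrial DNA, was not among them and is given below with the neighbouring genes. Ndufs8, an iron-sulfur subunit, stood at 9.24, 9.35, 9.17, 9.35 and 9.40 log2 in the control pools and at 9.47, 9.44, 9.59 and 9.77 in the heme pools, again without overlap (difference 0.27, SE 0.07, limma adjusted p = 0.149). Ndufv1, which binds NADH and flavin, was at 9.69 ± 0.05 (SD, n = 5) in the control and 9.85 ± 0.08 (SD, n = 4) in the heme pools. Ndufs1, the subunit with the most iron-sulfur clusters, was at 10.37 ± 0.04 and 10.49 ± 0.05. Neither overlapped between diets. The differences of Ndufs3, Ndufs7 and Ndufv2 were 0.09, 0.09 and 0.055, and their pools overlapped. The median over these 6 nuclear core subunits was 0.10, as it was over the 30 accessory subunits. The difference between these medians was not tested.

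Among accessory subunits Ndufs5, Ndufa10 and Ndufab1 were near the top. Ndufab1, the mitochondrial acyl carrier protein, which also serves fatty acid and lipoate synthesis, stood at 9.28 to 9.34 log2 in the 5 control pools and at 9.39, 9.43, 9.49 and 9.54 in the heme pools. The diets did not overlap, and the gap between them was narrower than the range of the control pools. Ndufs5 and Ndufa10 had differences of 0.25 and 0.19 and did not overlap either. At the other end Ndufa6 had -0.04 and Ndufa4l2, Ndufb5 and Ndufa7 had 0.01 to 0.015. Ndufa4l2, a hypoxia-inducible relative of Ndufa4, lay at 4.78 log2 in the control pools, close to the filter value.

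All 4 subunits of complex II were higher on every day. Sdhd, a membrane anchor (probeset 10593356), stood at 10.36, 10.39, 10.35, 10.36 and 10.42 log2 in the control pools and at 10.47, 10.50, 10.51 and 10.60 in the heme pools (difference 0.15, SE 0.03, adjusted p = 0.0897 in limma). The heme pools were ordered by day and none reached down to the control pools. Sdha, the flavoprotein that oxidises succinate, did not overlap either, with 11.45 ± 0.03 (SD, n = 5) and 11.52 ± 0.02 (SD, n = 4). Sdhb, the iron-sulfur subunit, and Sdhc, the other anchor, had differences of 0.14 and 0.16. Their heme pools of day 2 (9.85 and 10.25) lay within the control range.

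In complex III, 6 of 8 subunits had an unadjusted p under 0.05. Uqcrfs1, the Rieske iron-sulfur protein (probeset 10408487), had the lowest adjusted p of all members. Its level was 9.35, 9.40, 9.33, 9.41 and 9.42 log2 in the control pools and 9.50, 9.56, 9.59 and 9.71 in the heme pools (difference 0.21, SE 0.04, 1.16-fold, limma adjusted p = 0.0726). All heme pools lay above the control pools. In limma it was called with the arrays centred (adjusted p = 0.0401), with array weights (0.0462) and on leaving out heme day 2 (0.0256). Without any other single pool Uqcrfs1 was not called (limma adjusted p = 0.096 to 0.211). Uqcrq, a small subunit next to cytochrome b, had 9.02 to 9.18 log2 in the control pools and 9.10, 9.34, 9.36 and 9.48 in the heme pools. Only its day 2 heme pool fell within the control range. The core proteins Uqcrc1 and Uqcrc2 had differences of 0.14 and 0.11 without overlap, and Uqcr11 and Uqcr10 had 0.185 and 0.13 with overlap. Uqcrb, which binds ubiquinone together with cytochrome b, and Uqcrh, a hinge protein near cytochrome c1, had -0.025 and 0.02.

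**Figure D2:**
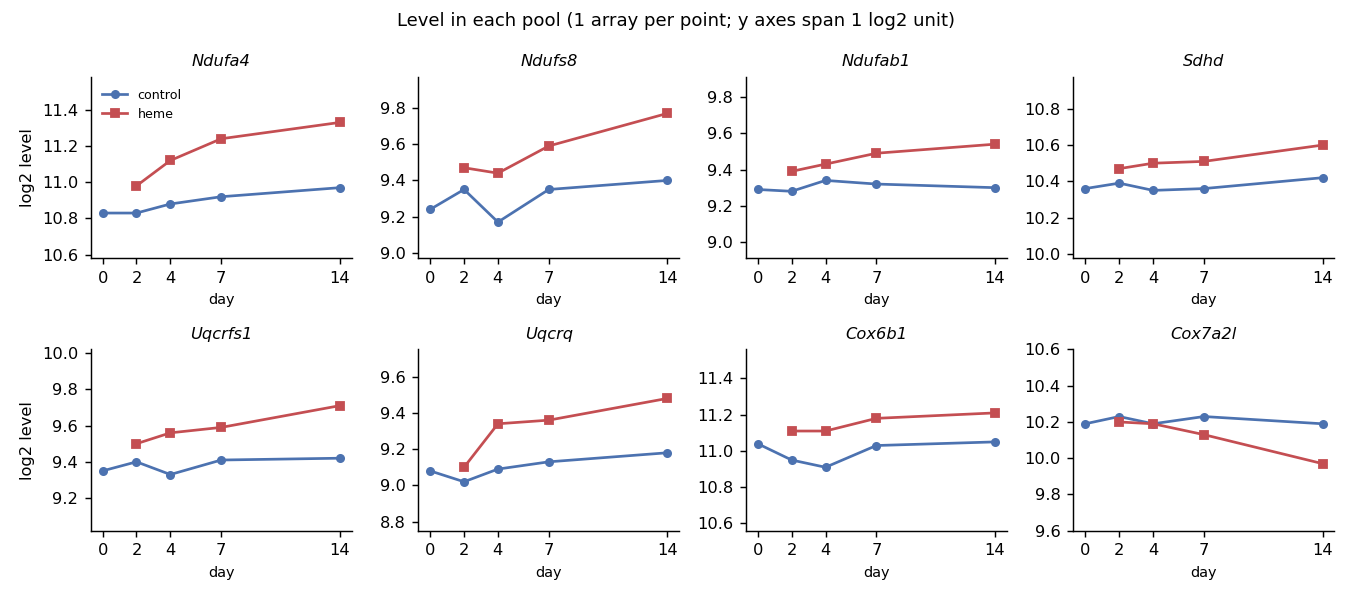
Level (log2, vertical axis, each panel spanning 1 log2 unit) by day (horizontal axis) of 8 members in the 5 control pools (circles) and 4 heme pools (squares), 1 array per point. The heme pools of Ndufa4, Ndufs8, Ndufab1, Sdhd, Uqcrfs1 and Cox6b1 lie above every control pool, and Cox7a2l falls away from the control pools by day 14.

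Complex IV was split between widely expressed subunits and forms known mainly from muscle, heart, lung or testis. Of the 10 widely expressed genes by this division, 9 had a difference above 0, with a median of 0.09. Cox6b1, which joins the monomers of the enzyme (probeset 10562059), stood at 11.04, 10.95, 10.91, 11.03 and 11.05 log2 in the control pools and at 11.11, 11.11, 11.18 and 11.21 in the heme pools (difference 0.16, SE 0.04, limma adjusted p = 0.12). It and Cox5b (difference 0.09) were the 2 members of complex IV without overlap. The regulatory subunit Cox4i1 had 0.05, Cox5a, a matrix-side subunit, 0.08, Cox6c 0.01, and Cox6a1, Cox7b, Cox7a2 and Cox8a had 0.09 to 0.105. Cox7a2l, named as a complex IV subunit but known to join complexes III and IV into supercomplexes, was the lowest at -0.08. A weaker probeset of Cox7a2l gave -0.04. Its same-day differences were -0.03, 0.00, -0.10 and -0.22 log2 on days 2, 4, 7 and 14, so the pools of day 4 were nearly equal.

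Of the 6 tissue-restricted forms of complex IV tested, 5 were dim, with mean levels of 5.08 to 6.38 log2, and Cox7a1 was at 9.44. Cox6b2, a testis form, stood at 5.70, 5.47, 5.52, 5.58 and 5.63 log2 in the control pools and at 5.87, 5.70, 5.82 and 6.16 in the heme pools (difference 0.305, SE 0.09, limma adjusted p = 0.172), and the heme pool of day 14 was the highest. Cox6a2, the heart and muscle form, was at 6.33, 6.33, 6.26, 6.33 and 6.33 in the control pools (SD 0.03). In the heme pools it was at 6.33, 6.47, 6.20 and 6.82. Cox8c, another testis form, was at 5.43 to 5.50 in the control pools and at 5.49, 5.50, 5.53 and 5.87 in the heme pools. Cox6a2, Cox6b2 and Cox8c lay above every control pool on day 14. Cox4i2, a form of lung and smooth muscle, Cox7a1, a heart and muscle form, and Cox8b, also of muscle, had differences of 0.095, 0.11 and 0.15 with overlap. On day 14 Cox4i2, Cox7a1 and Cox8b (5.86, 9.54 and 5.15 log2) also lay above every control pool. Cox7a1 and Cox8b were furthest from the control mean on day 7 (0.16 and 0.26) and not on day 14 (0.14 each). On day 14 the mean level of 5 skeletal and heart muscle markers was 5.94 log2, against 5.72 to 5.88 in the other 8 pools. Of these markers Actc1 and Myh7 were called higher on that day in limma (0.43 and 0.26), Myh6 had 0.25, Ckm -0.01 and Acta1 -0.19. The 8 smooth muscle markers stood at 6.98 in that pool, against 6.85 to 9.13 in the control pools, and the part of either marker list was not tested.

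**Figure D3:**
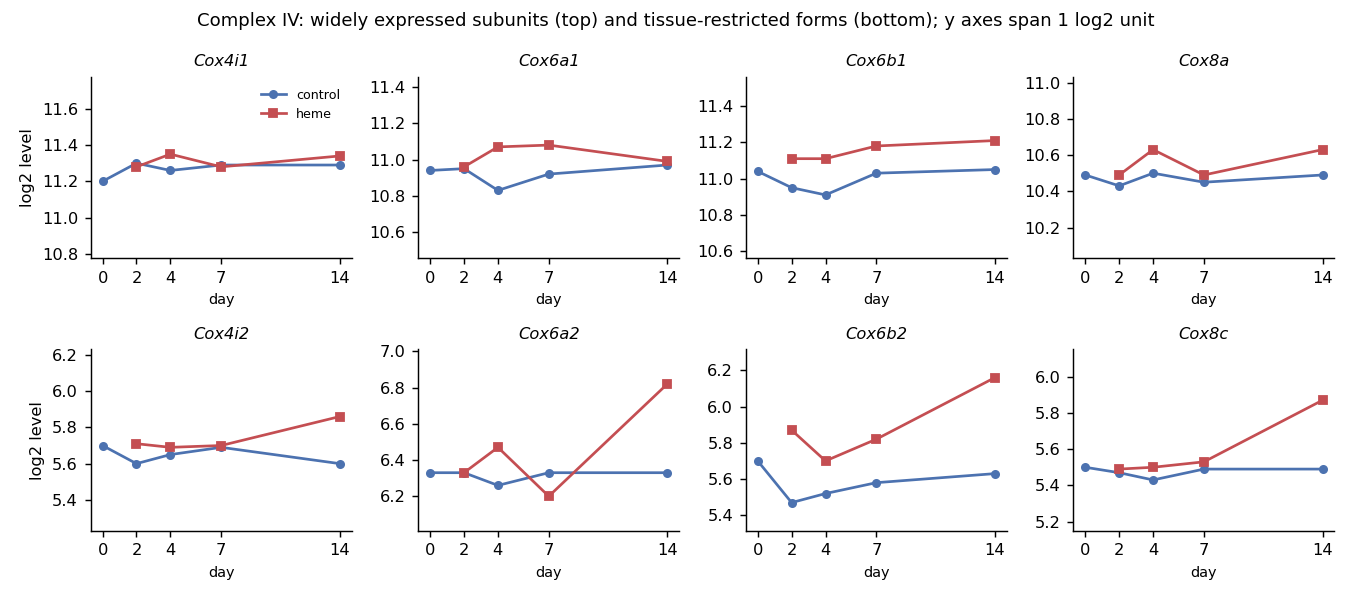
Level (log2, vertical axis, each panel spanning 1 log2 unit) by day of 4 widely expressed complex IV subunits (top) and the corresponding tissue-restricted forms (bottom) in control pools (circles) and heme pools (squares). Cox6a2, Cox6b2 and Cox8c reach 6.82, 6.16 and 5.87 in the heme pool of day 14. On that day Cox6b1 and Cox8a differ from the control mean by 0.22 and 0.15.

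The 11 assembly factors, among them Ndufaf1, which acts early in building complex I, were centred on 0. Their differences ran from -0.16 to 0.04, 5 of 11 lay above 0, and 0 had an unadjusted p under 0.05. The 2 highest were Ndufaf2 (0.04) and Sdhaf3 (0.02). The lowest was Sdhaf4, which helps to mature the flavoprotein of complex II, at 6.44 ± 0.15 (SD, n = 5) and 6.28 ± 0.25 (SD, n = 4), followed by Ndufaf5 (-0.03). A weaker probeset of Sdhaf4 gave 0.25 with the opposite sign. Of the 12 members with more than 1 probeset, Ndufb11 (0.03 and -0.05) and Uqcrb (-0.025, -0.005 and 0.01) also disagreed in sign, while Uqcr11 (0.185 and 0.25), Cox7b (0.10 and 0.10) and Ndufs3 (0.09 and 0.08) agreed.

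The median of the subunits differed by day. Relative to the mean of the control pools, the median of the 64 subunits was 0.03 log2 in the heme pool of day 2, 0.11 on day 4, 0.14 on day 7 and 0.16 on day 14. The control pools themselves ran from -0.02 to 0.04. Relative to the control pool of the same day the medians were 0.075, 0.13, 0.12 and 0.12, level from day 4 on. On day 4 the heme pool was higher in 62 of 64 subunits, against 51% of all genes tested, and in all 36 of complex I. In 15 subunits the levels of the heme pools were in the order of the days, or 23.4% against 6.32% of all genes. They included Ndufa4, Ndufv1, Ndufab1, Sdhb, Sdhd, Uqcrc1, Uqcrfs1, Uqcrq and Cox6b1.

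**Figure D4:**
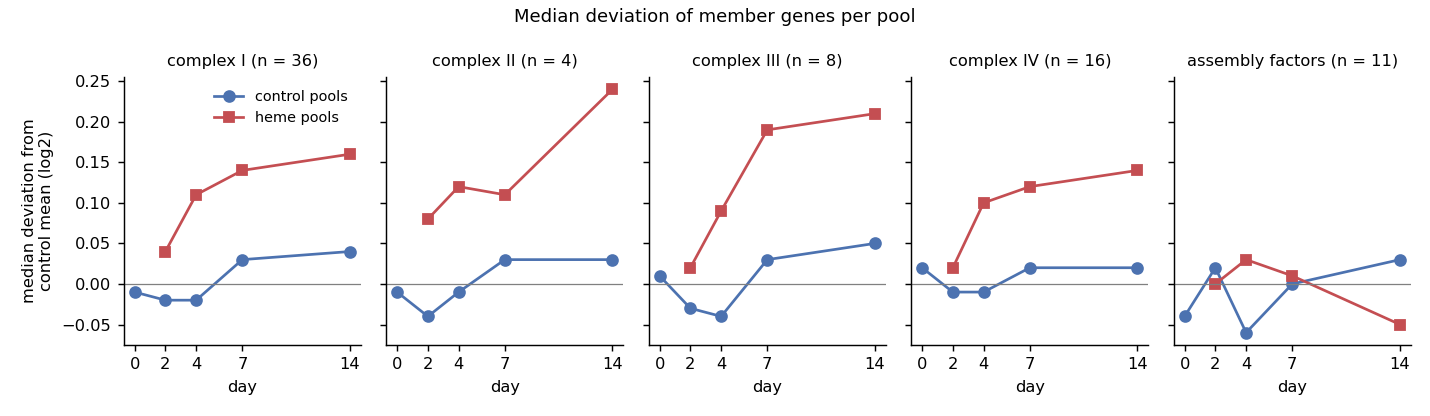
Median deviation of member genes from their control mean (log2, vertical axis) by day in control pools (circles) and heme pools (squares), a panel for each complex and for the assembly factors. In complexes I to IV the heme pools lie between 0.02 and 0.08 on day 2 and between 0.14 and 0.24 on day 14, and the assembly factors lie between -0.06 and 0.03.

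Each heme day was also tested against the 5 control pools. With 1 pool per heme day, only the controls give a spread (4 residual degrees of freedom), and the fit takes the heme pool to have the same one. All 4 comparisons use the same controls. On days 2, 4 and 7 no member was called in limma, where 0%, 0% and 1.64% of all genes were (on day 7, 0.876% higher and 0.762% lower). At an unadjusted p under 0.05, 6 members were higher and 1 lower on day 2, 17 and 0 on day 4, and 34 and 1 on day 7. Of all genes 4.88%, 4.13% and 6.87% were higher and 4.38%, 2.9% and 9.91% lower. Above 0 were 45, 62 and 58 of the 64 subunits, against 52.2%, 51.3% and 47.6% of all genes. On day 2 the highest were Cox6b2 (0.29), Ndufs8 (0.17) and Ndufa10 (0.14) and the lowest Ndufb6 and Ndufb2 (-0.14 each) and Ndufv3 (-0.12). On day 4 Uqcrq and Ndufa4 (0.24 each) and Uqcr11 (0.19) led, and Sdhaf4 (-0.13), Ndufaf7 and Cox7a2l (-0.02 each) were lowest. On day 7 Ndufa4 (0.35, adjusted p = 0.0539 in limma), Ndufs5 (0.35) and Ndufb8 (0.30) led, and Cox6a2 (-0.12), Cox7a2l (-0.08) and Ndufa7 (-0.07) were lowest.

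On day 14, 29 members were called higher and 2 lower in limma. Of all genes tested 11.3% were called higher and 15.8% lower (27.1% in either direction). At an unadjusted p under 0.05, 37 members were higher and 3 lower, against 18.6% and 22.4%, and 56 of 64 subunits lay above 0, against 49.6%. Called higher were 14 of 36 genes of complex I, 3 of 4 of complex II, 6 of 8 of complex III, 6 of 16 of complex IV and 0 of 11 assembly factors. Cox6b2 and Cox6a2 rose 1.49-fold and 1.42-fold (adjusted p = 0.0104 and 0.0049 in limma), Ndufs8 1.38-fold (0.0147), Ndufa4 1.36-fold (0.00753), Cox8c and Uqcrq 1.31-fold each (0.00924 and 0.00946) and Sdhc 1.29-fold (0.0246). The test of Cox6a2 rests in part on nearly equal control pools, with an SD of only 0.03. Smaller rises included Ndufa10, Ndufb6 and Ndufb7 (0.33 to 0.36 log2), Uqcrfs1 (0.33), Sdhb (0.25), Sdhd (0.23) and Uqcrc2 (0.19). Cox7a2l fell by 0.23 log2 (limma adjusted p = 0.00763) and Sdhaf4 by 0.52 (adjusted p = 0.0381).

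The remaining calls of that day were rises of 0.10 to 0.33 log2. In complex I these were Ndufa5, Ndufa8, Ndufa9, Ndufa11, Ndufab1, Ndufb8, Ndufb9, Ndufs1 and Ndufv1, in complex III Uqcr11, Uqcrc1 and Uqcrh, and in complex IV Cox6b1, Cox7a2 and Cox8a. Of the 31 calls, 18 held in each of the 5 fits without a control pool, 17 of them higher and the fall of Cox7a2l. Sdhaf4 held in 1 of the 5 and Ndufs1 in 0. With the arrays centred on their medians 27 of the 31 stayed called. Uqcrh, whose control pools differed by an SD of only 0.01, was among the 4 lost (adjusted p = 0.213).

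Neither the late-minus-early comparison nor the control diet alone gave a call. The former set the diet difference of the later days (7 and 14) against that of the earlier (2 and 4). It called 0 members in limma, with 1 higher and 0 lower at an unadjusted p under 0.05, against 0% of all genes called and 2.05% and 4.57% at that p. Above 0 were 40 of 64 subunits, against 42.2% of all genes. Ndufb6 (0.29), Cox8c (0.165) and Ndufa11 (0.16) were highest and Sdhaf3, Ndufa7 and Sdhaf4 (-0.19 each) lowest. On the control diet the slope per unit of log2(day + 1) was called for 0 members and 0% of all genes, with 7 members above and 1 below 0 at an unadjusted p under 0.05, against 4.05% and 3.12%. In all 53 of 64 subunits had a slope above 0, against 50.6% of all genes, with a median of 0.015. The highest slopes were those of Ndufaf1 (0.07), Ndufaf6 (0.06) and Ndufb6 (0.05), and the lowest those of Ndufa6 (-0.03), Ndufa4l2 and Cox4i2 (-0.02 each).

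Neighbouring mitochondrial genes were taken from lists written from textbook knowledge, and differences between lists were not tested. ATP synthase, the enzyme that uses the proton gradient, had a median of 0.095 with 16 of 17 genes above 0 and 0 called, led by Atp5g1 (0.305) and Atp5g3 (0.21), with Dmac2l (-0.03) lowest. Electron entry and carrier genes had a median of 0.14, and 1 of 16 was called. That was Etfdh, which feeds electrons of fatty acid oxidation to ubiquinone. It stood at 10.42, 10.45, 10.47, 10.58 and 10.55 log2 in the control pools and at 10.72, 10.75, 10.90 and 10.85 in the heme pools, a 1.24-fold rise with no overlap (limma adjusted p = 0.0172). Its call held in 4 of 9 fits without a pool and was lost on leaving out control day 0, 2 or 4 or heme day 7 or 14 (adjusted p at most 0.0712). Etfb, a subunit of the flavoprotein that delivers those electrons, had 0.32 (adjusted p = 0.0711) and Coq2 of ubiquinone synthesis -0.06.

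The other lists had 0 called genes in limma. Medians were 0.07 for 77 mitochondrial ribosome genes (Mrps6 0.27 and Mrps15 0.21 highest, Mrpl44 -0.075 lowest), 0.055 for 13 citric acid cycle genes (Mdh2 0.23 and Fh1 0.18 highest, Cs 0.02 lowest) and 0.05 for 30 other assembly factors (Higd1a 0.32 and Surf1 0.19 highest, Uqcc3 -0.07 lowest). At an unadjusted p under 0.05, 21, 5 and 5 of these were higher and 0 of each lower, against 8.39% and 8.65% of all genes. On day 14 the other assembly factors had a median of 0.02, in the range -0.42 to 0.46. Of these 30 genes 18 lay above 0, against 49.6% of all genes. Subunits encoded in mitochondrial DNA were represented by a pair of genes. ND3 of complex I was at 12.40 ± 0.08 (SD, n = 5) in the control and 12.30 ± 0.09 (SD, n = 4) in the heme pools, and COX2 of complex IV at 12.93 ± 0.06 and 12.83 ± 0.09 (adjusted p = 0.306 and 0.302 in limma). Their differences from the control mean were -0.20 and -0.15 on day 2, -0.03 and -0.025 on each of days 4 and 7, and -0.16 and -0.19 on day 14, none of them called in limma. On that day 8 of 17 ATP synthase genes, 6 of 16 electron entry and carrier genes and 4 of 13 citric acid cycle genes were called higher and 0 lower, and 11 of 77 mitochondrial ribosome genes higher and 3 lower. Of all genes 11.3% were called higher and 15.8% lower, and the share of the ribosome genes called higher was near the former.

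Among 13 regulators of mitochondrial gene expression, 3 were called lower on day 14 and 0 higher, against 15.8% and 11.3% of all genes. These were Ppargc1a, the nuclear respiratory factor Nrf1 (-0.29, limma adjusted p = 0.0195) and Tfb2m, a factor of mitochondrial transcription (-0.27, adjusted p = 0.00977). In a list of 13 genes the number called lower was near the share of all genes. Nrf1 and Tfb2m were named after their values were seen. Between the diets 0 were called in limma, with 0 higher and 1 lower at an unadjusted p under 0.05, and the highest were Polrmt, the mitochondrial RNA polymerase (0.10), and Esrra, a nuclear receptor of energy metabolism (0.05). Ppargc1a encodes PGC-1 alpha, a coactivator of mitochondrial biogenesis. Its level was 9.03, 9.16, 8.96, 8.99 and 8.95 log2 in the control pools and 9.01, 8.73, 8.43 and 7.91 in the heme pools of days 2, 4, 7 and 14, a step down at each later day. Against the 5 control pools it fell on day 7 (difference -0.585, limma adjusted p = 0.035) and on day 14 by 1.11 log2 (adjusted p = 0.00251). The call of day 7 was lost in each of the 5 fits without a control pool (up to 0.105), and that of day 14 held in all 5.

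Short motifs of known regulators of respiratory genes were looked up in the promoters. RefSeq windows (GRCm38.p6, from 250 bases before to 50 after a gene's start) were at hand for 52 of the 65 subunits, 54 windows in all. The palindromic NRF1 motif, in capitals in its sites printed next, was in 5.56% of subunit windows and 0.971% of all 32851 windows. The YY1 motif AAGATGGC, read on both strands, was in 13% against 2.75%, the ETS motif CCGGAAG of GABP in 20.4% against 8.86%, and the ERR motif TCAAGGTCA in 1.85% against 0.423%. The windows of 10 assembly factors held the NRF1 motif in 2, the ETS motif in 4 and the YY1 and ERR motifs in 0. Complex I held 34 of the 54 subunit windows, and whether the YY1 motif favours it was not tested. All 7 windows with the YY1 motif were of complex I. Their sites are shown because this motif was met in several genes of a single complex, each as 30 bases of the gene's strand, 5′ to 3′, with the motif in capitals.
Ndufa3, YY1, chr7:3617384-3617413, plus strand: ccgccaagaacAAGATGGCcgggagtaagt
Ndufa9, YY1, chr6:126849097-126849126, minus strand: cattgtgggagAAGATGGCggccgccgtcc
Ndufb8, YY1, chr19:44555393-44555422, minus strand: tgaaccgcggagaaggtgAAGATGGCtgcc
Ndufc1, YY1, chr3:51408915-51408944, minus strand: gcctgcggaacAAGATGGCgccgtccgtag
Ndufs4, YY1, chr13:114388045-114388074, minus strand: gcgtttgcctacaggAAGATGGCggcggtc
Ndufs6, YY1, chr13:73328433-73328462, minus strand: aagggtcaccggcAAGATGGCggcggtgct
Ndufs7, YY1, chr10:80249462-80249491, plus strand: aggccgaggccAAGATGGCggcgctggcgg

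These sites began between 23 and 39 bases after the gene's start, and each motif holds an ATG within it. The 7 genes had diet differences of 0.07 to 0.18 with a median of 0.09, and the 25 other complex I genes with a window 0.10. The NRF1 sites and both sites of Sdhd (ETS and ERR, on the opposite strand) were as follows.
Cox6a1, NRF1, chr5:115349101-115349130, minus strand: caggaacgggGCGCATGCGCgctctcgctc
Ndufa11, NRF1, chr17:56717692-56717721, plus strand: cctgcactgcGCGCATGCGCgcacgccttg
Uqcrc1, NRF1, chr9:108936668-108936697, plus strand: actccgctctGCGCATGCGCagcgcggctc
Sdhd, ETS, chr9:50603877-50603906, minus strand: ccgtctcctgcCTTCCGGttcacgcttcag
Sdhd, ERR, chr9:50603800-50603829, minus strand: tttccgggttgtagagTGACCTTGAgccct

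The NRF1 genes had diet differences of 0.105, 0.08 and 0.14. The ETS motif was in the windows of 11 subunits, among them Ndufs8, Ndufb6, Ndufb7, Sdhb, Sdhd, Uqcr11, Cox6b1 and Cox8a. In complex I the 4 genes with it had a median difference of 0.17 and the 28 others 0.09, in complex III 0.10 against 0.14, and in complex IV 0.105 against 0.10. A match is a string of letters and not a measured binding site.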

How the data were processed

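RNA of pooled colon scrapings from 9 diet and day groups was hybridised to whole-transcript mouse arrays. The deposited log2 values per probeset were made with RMA, per the submitters' processing notes (version and genome build not given in the sources used here). This method subtracts background, gives all arrays the same distribution and combines the probes of a probeset, so a shift common to all genes would be removed and differences of strong or dim probesets are compressed. Precision is set by how many arrays there are. Array medians lay between 5.895 and 5.963 log2.

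Of 35556 probesets, 21789 had 1 gene symbol in the platform annotation, 1621 had several and 12146 had none. Those with several genes were left out, and 21698 of the named were matched to RefSeq by Entrez ID. Each gene was read from its probeset of highest mean. Of 19938 genes, the 14953 with a mean at or above the 25th percentile (4.716 log2) were tested with limma 3.58.1 in R 4.3.3 (lmFit, eBayes with trend), with Benjamini-Hochberg adjustment over all genes tested and calls under 0.05. In 5146 of these, and in 18 members, control pools held identical values, which understates their spread. Tables and figures were made with Python 3.11.15 and matplotlib 3.10.9. The fits were also run on simulated normal values with the same spread in every pool. Those data held no tied values, shared day effects or other tissue, so they cannot show how the fits behave with these.

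The members, lists and motifs were chosen with earlier results of these data known. Named with values were every member called, the 4 highest and 4 lowest of complexes I and IV, all of complexes II and III, the 2 highest and 2 lowest assembly factors, the core of complex I, the tissue-restricted forms with their partners, the 3 highest and 3 lowest members of the other comparisons, and the 2 highest and 1 lowest of each neighbouring list. Other members were named after their values were seen. The deviations of the control and heme pools of the same day correlated with r = 0.651, -0.005, 0.333 and 0.168 on days 2, 4, 7 and 14. The highest r of these heme pools with a control pool of another day was 0.014, 0.106, 0.422 and 0.265. Only on day 2 was the same-day value the higher. The labels share the day, so the day was also fitted as a block. Other alternatives were leaving out each pool, other filters, averaged probesets, centred arrays, no trend and array weights.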

Additional observations from a re-analysis of the deposited data

Results flagged for a closer look

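Among the named members and complex medians, 130 groups of pools were screened for a pool far from the others of its diet, and 10 had one. In independent groups of normal values chance gives about 1 in 20. Many of these members were named by their values, so that rate cannot be applied here. In the control pool of day 0, 4 members were low, namely Cox7b (11.33 log2), Ndufaf5 (6.33), Ndufb6 (9.68) and Ndufc1 (9.22). In the control pool of day 4 Cox6a2 was low (6.26). In the heme pool of day 2 Ndufc1 (9.33) and Ndufv3 (8.16) were low. In the heme pool of day 14 Cox4i2 (5.86) and Cox8c (5.87) were high and Ndufaf5 was low (6.24). Without the control pool of day 0 no member was called in limma between the diets, as with it (lowest adjusted p = 0.191).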

How the results depend on the processing

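The precision is limited by 9 arrays. The count of members called between the diets, 0 as reported, was 0 to 9 without 1 pool. It was 9 without the heme pool of day 2 (Ndufa4, Ndufa9, Ndufab1, Ndufb8, Sdhb, Sdhd, Uqcr11, Uqcrfs1 and Uqcrq), 2 with centred arrays and also without both pools of day 2, and 1 with array weights. Members without overlap were 17 to 38 without 1 pool, 28 with centred arrays and 38 without both pools of day 2. The median of complex II was 0.098 to 0.177 without 1 pool, 0.11 with array weights and 0.111 without both pools of day 14. That of complex IV was 0.076 to 0.124 without 1 pool, 0.121 without both pools of day 2 and 0.078 without both of day 14. The calls in neighbouring lists, 1 as reported, were 0 to 9 without 1 pool, 2 with the filter at the 50th percentile or with array weights, 5 with centred arrays, 3 with the day as a replicate block or without both pools of day 2, and 0 without both pools of day 7 or of day 14. With centred arrays 1 member was called on day 7. The cause of these changes was not tested.

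With the day as a replicate block the member count stayed 0, and the medians were 0.09, 0.142, 0.138 and 0.105 for complexes I to IV. Members higher on all 4 days numbered 38 with centred arrays and 41 with averaged probesets. On day 14, 22 to 27 members were called without 1 control pool. Signs turned for members near 0. Without 1 pool Ndufb5 lay between -0.003 and 0.034 (also -0.002), Ndufa4l2 between -0.011 and 0.04, Ndufa7 between -0.02 and 0.045 (also -0.001), Sdhaf3 between -0.002 and 0.054 (also 0), Uqcrb between -0.051 and 0.006 (also 0.005), Cox6c between -0.012 and 0.031, Ndufaf5 between -0.044 and 0.008 and Uqcrh between -0.002 and 0.046. Ndufb5 was -0.002 with the day block, Sdhaf4 0.043 with averaged probesets, Ndufaf5 0 with array weights, and without both pools of day 2 or of day 14 Uqcrb was 0.005, Ndufaf5 0.01 and Uqcrh -0.003. The alternatives without both pools of a day, and centred arrays in the day comparisons, were chosen after seeing the data.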
